A study of Mus musculus with 10 samples.

Results

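The enzymes that write and erase methyl groups on histones and on DNA, with a few of their binding partners and readers, were followed from mRNA to ribosome occupancy in mouse cortical cultures. The group has 35 named genes. Each gene was represented by the transcript with the highest mean RNAseq count among those listed for it. A transcript was matched for 31 of the 35 genes, of 13184 genes named in the counts. Kdm1a, Kmt2e, Eed and Ash1l matched no transcript and were left out here.

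Cortical cells of newborn (P0) FVB mice were grown for 7 days as mixed cultures of neurons and glia. Depolarized cultures (KCl, 2 cultures, numbered 4 and 5) received KCl to a final 55 mM for 3 h, and the comparison cultures (untreated, 3 cultures, numbered 1 to 3) received none. All cultures received 100 ug/ml cycloheximide, which stalls elongating ribosomes, for 7 min before lysis. RNAseq (transcript abundance) and ribosome footprinting (RF, the mRNA fragments protected by ribosomes) were done on each culture, which gave 10 libraries. The labels name no genetic alteration or transgene in either group. Values of single cultures are given in the order 1 to 5, so that the first 3 are without and the last 2 with KCl. The sources used here do not say whether the numbered cultures came from separate litters, so the p-values measure the spread between these cultures.

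Methyl groups on histone tails are placed by lysine methyltransferases and removed by lysine demethylases, and the effect of a mark depends on the residue. Methylation of H3K4 is typical of active promoters, that of H3K36 and H3K79 of transcribed gene bodies, and that of H3K9 and H3K27 of silenced chromatin. DNA methylation at CpG sites is set by DNMT enzymes and oxidized by TET enzymes. Many of these genes are dosage sensitive in the developing brain, and several are known causes of intellectual disability when one copy is lost.

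The depth was 3056286 to 3629959 counted reads in the RNAseq libraries and 1463654 to 7719915 in the RF libraries, with untreated culture 3 and KCl culture 4 the shallowest in RF. RNAseq and RF levels are RPKM after TMM normalization (trimmed mean of M values) within each assay, over the whole transcript for RNAseq and over the 5′UTR and CDS for RF. TE is the ratio of the RF level to the RNAseq level in a culture. Of all RNAseq reads, the 3′UTR held 49.93%, 49.93% and 51.2% without and 53.27% and 51.77% with KCl. The CDS held 42.61%, 42.29% and 41.02% without and 39.35% and 40.56% with KCl. The part of this shift in the RNAseq and TE changes of single genes was not tested. Of 10 activity-regulated genes listed, 5 were found in the counts, without Fosb, Egr1, Npas4, Nr4a1 and Bdnf. Of these 5, Nr4a2, Crem, Fos and Junb rose in RNAseq with KCl. Their log2 fold changes were 5.16, 2.94, 1.58 and 1.02 by the stricter filter given below, which a gene could pass through the KCl cultures only. Mean levels were 1.38 RPKM without and 49.9 RPKM with KCl for Nr4a2, and 5.37 and 41.4 RPKM for Crem. By the read count filter the same 4 were called higher, and Arc was not (edgeR quasi-likelihood test, adjusted p = 0.0529). Marker genes showed the mixture of cells. The summed RNAseq level of 7 of 9 neuronal markers lay between 176 and 245 RPKM without and between 216 and 217 RPKM with KCl, and that of 7 of 7 astrocyte markers between 2698 and 3139 RPKM without and between 2422 and 2573 RPKM with KCl. The 8 oligodendrocyte lineage markers summed to between 1221 and 1377 RPKM without and between 1186 and 1201 RPKM with KCl, the 6 microglia markers to between 57.7 and 66.4 RPKM without and between 42.4 and 54.99 RPKM with KCl, and 6 of 7 endothelial and mesenchymal markers to between 131 and 163 RPKM without and between 125 and 144 RPKM with KCl. For 6 of 7 markers of cycling cells the sums lay between 43.1 and 53.1 RPKM without and at 39.9 RPKM in both cultures with KCl. No marker found in the counts had 0 RNAseq reads. The astrocyte, oligodendrocyte, microglia and cycling sums in RNAseq were lower in both KCl cultures than in every untreated culture, with Gfap (1856 RPKM untreated) and Mbp (1058 RPKM) the bulk of the first and second of these. In RF, by the read count filter described next, 4 of 7 astrocyte, 2 of 8 oligodendrocyte lineage and 2 of 5 cycling markers were called higher and none lower, and 3 of 6 microglia markers were called higher and 2 lower. Of 7 neuronal markers 1 was called higher and none lower. Of 4 endothelial and mesenchymal markers 1 was called higher and 2 lower. Over all transcripts 15.6% were called higher and 14.3% lower in RF. The part of these markers in the results on the methylation genes was not tested. In cultures of this kind, fewer cells of a type and less RNA per cell cannot be told apart.

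More of these genes rose than fell with KCl. All 31 genes passed edgeR's filterByExpr, a filter on read counts that left 18202 transcripts. Here 15 of the 31 rose in RNAseq and 2 fell (adjusted p under 0.05, edgeR quasi-likelihood test), where 12.6% of all transcripts rose and 10.5% fell. In RF 14 rose and 4 fell, against 15.6% and 14.3% of all transcripts. In TE none rose and 1 fell, where 0.461% of all transcripts rose and 1.29% fell, and 4 of the 31 had an unadjusted p under 0.05, as did 11.9% of all transcripts. The median log2 fold change of the 31 genes was 0.34 in RNAseq, 0.27 in RF and 0.038 in TE, beside -0.015, -0.0067 and 0.010 over all transcripts. RNAseq and RF were called in the same direction for 13 genes and in opposite directions for 1 gene, Phf2. Of the rest, 3 genes were called in RNAseq alone, 4 in RF alone and 10 in neither, and a call in one assay alone does not show that the assays differed. These joint counts are a description, given without the share of all transcripts in each class. With library totals in place of TMM the median of all transcripts moved to -0.16 in RNAseq and -0.16 in RF.

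A stricter filter required an RPKM of at least 10 in RNAseq and in RF on the CDS of the same culture, in at least 2 cultures. RPKM for this filter was taken per counted reads of a library, without TMM. It left 7258 transcripts of 4365 genes and 14 of the 31 members, 2 of which (Kdm5a and Kdm6b) passed through the KCl cultures only and 4 (Phf2, Setd5, Nsd1 and Dnmt1) through the untreated cultures only. Whether these 6 passed depended on 1 group, so the counts among the 14 are a description and the changes of the 6 are also given from the wider table. Among these 14, 6 rose and 1 fell in RNAseq, beside 17.5% and 15.7% of the 7258 transcripts. In RF 7 rose and 4 fell, beside 20.3% and 20.1%. In TE 0 rose and 1 fell, beside 1.24% and 2.98%. Without KCl culture 5 the number of the 14 called in RF went from 11 to 7 and in TE from 1 to 0, and without KCl culture 4 the number in TE also went to 0. Fold changes below come from this stricter table for the 14 members and from the wider table for the other 17, and p-values are adjusted over all transcripts of the table used. TMM was computed within each table. Changes of the same member were slightly higher in the wider table, as for Kdm3b in RNAseq (-0.011 and 0.057) and RF (-0.35 and -0.28). With library totals in place of TMM, 5 of the 14 rose and 1 fell in RNAseq, where 1097 of the 7258 transcripts rose and 1483 fell. In RF 7 rose and 5 fell, where 1202 rose and 1867 fell. Of the other 17, tested in the wider table, 6 rose and 1 fell in RNAseq, and 4 rose and 3 fell in RF. The shares of all transcripts of the wider table with library totals are not given here. With TMM these shares were 12.6% higher and 10.5% lower in RNAseq, and 15.6% and 14.3% in RF.

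**Figure D1:**
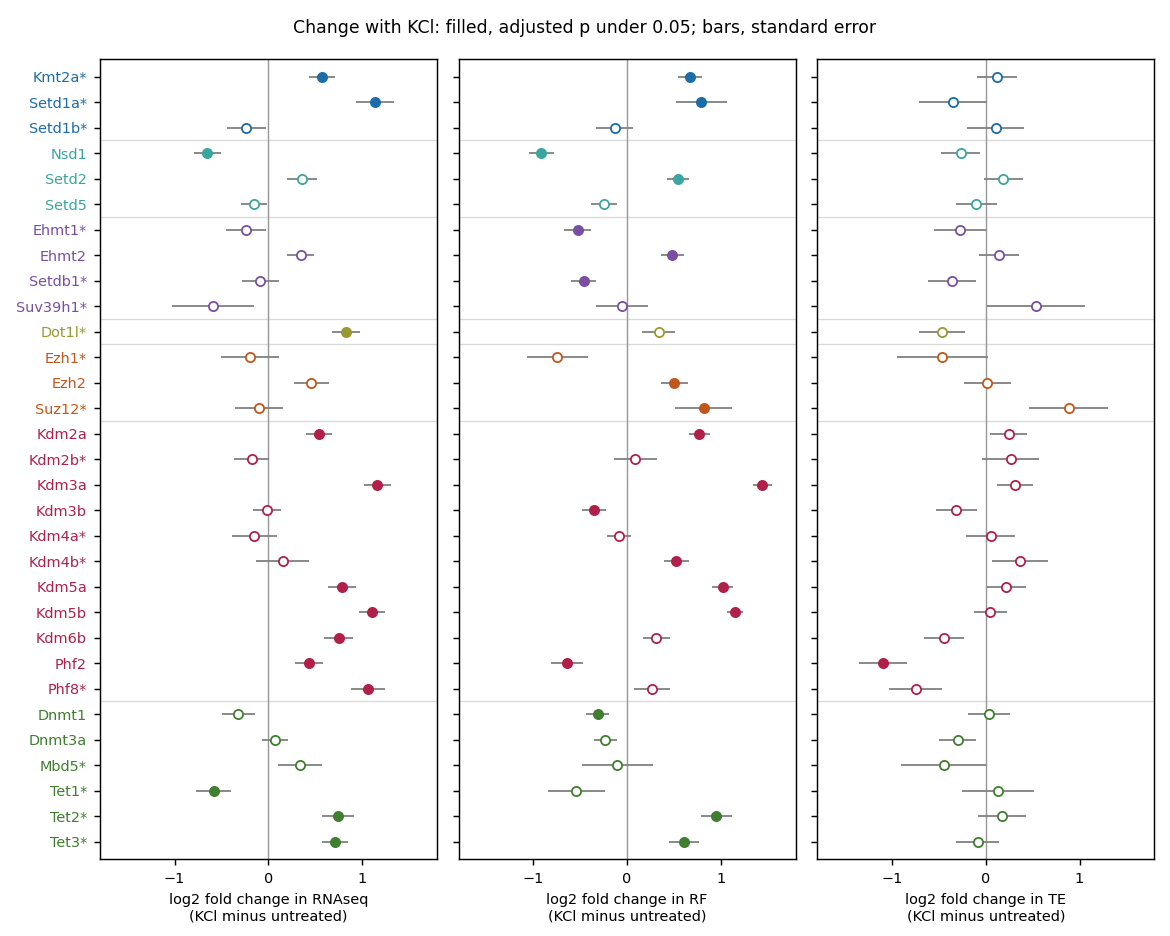
Log2 fold change with KCl of the 31 genes in RNAseq, RF and TE (x axis, KCl minus untreated), with approximate standard errors as bars and genes grouped by role. Filled points have an adjusted p under 0.05, and genes marked * come from the wider table of 18202 transcripts. Kdm3a, Kdm5b and Kdm5a lie farthest to the right in RF, Nsd1 and Phf2 fell in RF, and Phf2 is the single filled point in TE.

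Before KCl, the members were mRNAs of moderate level with long coding sequences. Their untreated RNAseq level ran from 2.53 RPKM (Suv39h1) to 25.1 RPKM (Setd5), with a median of 8.82 RPKM beside 7.96 RPKM over 10346 genes in the wider table. The median coding length was 3972 nt, beside 1221 nt over the 7258 transcripts of the stricter table. The untreated RF level ran from 1.57 RPKM (Setd1a) to 44.0 RPKM (Kdm5b). TE spanned a wider range than the mRNA levels did, from 0.417 in Tet1 to 6.03 in Kdm4b, with a median of 1.15 beside 1.73 over all genes, and 10 of the 31 lay above that median. TE was below 1 in 14 members and above 2 in 9. With RNAseq taken from the 5′UTR and CDS, the regions that RF was counted on, the median TE of the members was 1.55, and 10 members lay below 1 and 10 above 2. The median over all genes on these regions is not given here, and the 1.73 above is not comparable with 1.55.

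**Figure D2:**
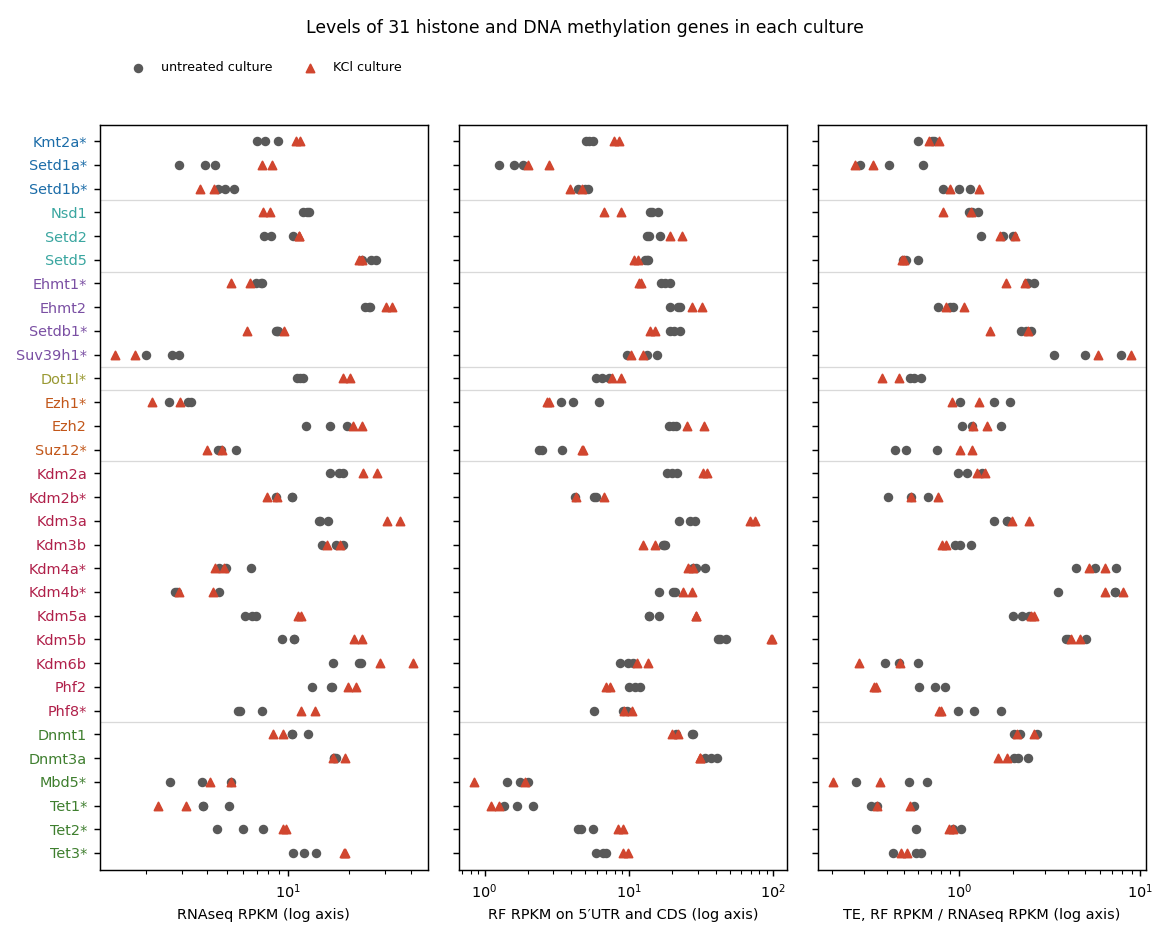
RNAseq level, RF level and TE of the 31 genes in each culture, on log axes, with grey circles for the 3 untreated and red triangles for the 2 KCl cultures. Genes are grouped by role and genes marked * lay below the RPKM filter. Kdm4a, Kdm4b, Kdm5b and Suv39h1 have the highest untreated TE, and Tet1, Setd1a, Kdm6b and Mbd5 have the lowest.

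The H3K4 methyltransferases had mean untreated TE values below 1 with RNAseq over the whole transcript. With KCl 2 of the 3 genes were called higher in each assay, beside 12.6% of all transcripts in RNAseq and 15.6% in RF. In untreated cultures (mean ± SD, n = 3 here and below) Kmt2a, which encodes MLL1, had 7.89 ± 0.924 RPKM in RNAseq, 5.32 ± 0.302 RPKM in RF and a TE of 0.679 ± 0.0740. Kmt2a RNAseq levels were 8.89, 7.7 and 7.07 RPKM without and 10.96 and 11.4 RPKM with KCl, and RF levels were 5.29, 5.64 and 5.03 RPKM without and 8.55 and 7.86 RPKM with KCl. Both KCl cultures lay above all untreated cultures in each assay. The rise was 0.58 ± 0.14 in RNAseq (log2 fold change ± SE, adjusted p = 9.81e-04) and 0.68 ± 0.13 in RF (adjusted p = 4.65e-05). Setd1a and Setd1b encode the catalytic subunits of the SET1 complexes, which trimethylate H3K4 at promoters. Setd1a mRNA rose, from 3.92, 4.40 and 2.90 RPKM without to 7.45 and 8.32 RPKM with KCl (log2 fold change 1.14 ± 0.20 (SE), adjusted p = 3.22e-06). In RF, Setd1a had between 16 and 74 footprints per library, and the RF rise (log2 fold change 0.79 ± 0.28 (SE), adjusted p = 0.0236) was not called on the CDS alone (log2 fold change 0.37, adjusted p = 0.461), by DESeq2 (adjusted p = 0.167), with library totals (adjusted p = 0.0721), or without KCl culture 5 (0.541) or untreated culture 2 (0.0556). Untreated Setd1a had 3.74 ± 0.762 RPKM in RNAseq, 1.57 ± 0.296 RPKM in RF and a TE of 0.445 ± 0.177. Its paralog Setd1b had 4.96 ± 0.431 RPKM in RNAseq, 4.89 ± 0.411 RPKM in RF and a TE of 0.994 ± 0.167 and was called in no readout. With RNAseq from the 5′UTR and CDS the untreated TE of Setd1b was 1.03 ± 0.203.

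Of the H3K36 methyltransferases, Nsd1 fell in both assays and Setd2 rose in RF. NSD1 dimethylates H3K36, and loss of one copy in humans causes an overgrowth syndrome. Its transcript lies at chr13:55209782-55318325 (GRCm38). Nsd1 RNAseq levels were 12.7, 12.4 and 11.8 RPKM without and 8.16 and 7.55 RPKM with KCl (log2 fold change -0.65 ± 0.14 (SE), adjusted p = 3.97e-04). RF levels were 14.5, 16.0 and 14.1 RPKM without and 6.70 and 8.79 RPKM with KCl (log2 fold change -0.91 ± 0.13 (SE), adjusted p = 2.35e-06). Neither assay had overlapping groups. The TE change of Nsd1 was -0.27 ± 0.21 (adjusted p = 0.592). By the wider table the changes were -0.58 in RNAseq (adjusted p = 0.00155) and -0.84 in RF (adjusted p = 1.20e-06). Leaving out any single culture kept both calls. Setd2, which trimethylates H3K36 behind elongating RNA polymerase II, rose in RF from 13.9, 16.4 and 13.4 RPKM without to 19.2 and 23.4 RPKM with KCl (log2 fold change 0.54 ± 0.12 (SE), adjusted p = 3.92e-04), a call that was lost without KCl culture 5 (adjusted p = 0.0954). In RNAseq its change was 0.36 ± 0.16 (adjusted p = 0.0748, and 0.0365 in the wider table). Setd5, a related SET domain gene, had the highest mRNA level of all members, 25.1 ± 2.05 RPKM, with 13.3 ± 0.334 RPKM in RF and a TE of 0.532 ± 0.0547, and was called in no readout of either table. Untreated levels were 12.3 ± 0.437 RPKM in RNAseq, 14.8 ± 1.01 RPKM in RF and a TE of 1.21 ± 0.0745 for Nsd1, and 8.81 ± 1.503 RPKM in RNAseq, 14.6 ± 1.62 RPKM in RF and a TE of 1.69 ± 0.336 for Setd2.

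Among the H3K9 methyltransferases, footprints rose on Ehmt2 and fell on Ehmt1 and Setdb1. EHMT1 (GLP) and EHMT2 (G9a) act as a heterodimer that places mono- and dimethyl marks on H3K9. Ehmt2 RF levels were 22.5, 19.4 and 22.03 RPKM without and 32.3 and 27.5 RPKM with KCl (log2 fold change 0.48 ± 0.12 (SE), adjusted p = 0.00244), and Ehmt1 RF levels were 19.2, 17.7 and 16.7 RPKM without and 12.1 and 11.8 RPKM with KCl (log2 fold change -0.53 ± 0.15 (SE), adjusted p = 0.00460). The groups overlapped for neither gene. In RNAseq the changes were 0.35 ± 0.14 for Ehmt2 (adjusted p = 0.0580) and -0.24 ± 0.21 for Ehmt1 (adjusted p = 0.474). In the wider table the Ehmt2 rise in RNAseq passed the test (log2 fold change 0.42, adjusted p = 0.0305). Setdb1, which trimethylates H3K9 at silenced retrotransposons, had RF levels of 22.6, 20.5 and 19.4 RPKM without and 15.1 and 14.1 RPKM with KCl (log2 fold change -0.46 ± 0.14 (SE), adjusted p = 0.00748), with an RNAseq change of -0.085 ± 0.20 (adjusted p = 0.813). The RF calls were lost without KCl culture 5 for Ehmt1 (adjusted p = 0.127) and Setdb1 (0.194) and without KCl culture 4 for Ehmt2 (0.0789). Suv39h1, the enzyme of pericentromeric heterochromatin, was the least abundant mRNA of the group and was called in no readout. Untreated levels were 7.26 ± 0.264 RPKM in RNAseq, 17.9 ± 1.30 RPKM in RF and a TE of 2.46 ± 0.110 for Ehmt1. Ehmt2 had 24.7 ± 0.859 RPKM in RNAseq, 21.3 ± 1.70 RPKM in RF and a TE of 0.865 ± 0.0877. Setdb1 had 8.82 ± 0.126 RPKM in RNAseq, 20.8 ± 1.63 RPKM in RF and a TE of 2.36 ± 0.155, and Suv39h1 2.53 ± 0.473 RPKM in RNAseq, 12.9 ± 3.00 RPKM in RF and a TE of 5.38 ± 2.28. The Suv39h1 values rest on between 12 and 26 RNAseq reads per library.

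Dot1l, the only known H3K79 methyltransferase of mammals, rose in RNAseq. Its levels were 11.8, 11.4 and 11.1 RPKM without and 18.6 and 20.1 RPKM with KCl (log2 fold change 0.83 ± 0.15 (SE), adjusted p = 5.86e-06), with no overlap and with the call kept when any single culture was left out. RF levels were 7.34, 6.48 and 5.96 RPKM without and 8.76 and 7.64 RPKM with KCl, a change of 0.34 ± 0.17 (adjusted p = 0.143). TE of Dot1l was 0.623, 0.568 and 0.537 without and 0.472 and 0.380 with KCl, lower in both KCl cultures, with a change of -0.47 ± 0.25 that did not pass the test (adjusted p = 0.445). Untreated Dot1l had 11.4 ± 0.334 RPKM in RNAseq, 6.59 ± 0.694 RPKM in RF and a TE of 0.576 ± 0.0437.

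Of the Polycomb repressive complex 2 (PRC2), which methylates H3K27, Ezh2 and Suz12 had more footprints after KCl. EZH1 and EZH2 are alternative catalytic subunits, and SUZ12 is a structural subunit that the complex needs. Ezh2 RF levels were 19.0, 21.1 and 20.4 RPKM without and 33.0 and 25.1 RPKM with KCl (log2 fold change 0.50 ± 0.15 (SE), adjusted p = 0.00667), and its RNAseq change was 0.46 ± 0.19 (adjusted p = 0.0533, and 0.0247 in the wider table). The Ezh2 call in RF was lost without KCl culture 4 (adjusted p = 0.190). Suz12 RF levels were 2.40, 3.44 and 2.49 RPKM without and 4.76 and 4.80 RPKM with KCl (log2 fold change 0.82 ± 0.31 (SE), adjusted p = 0.0357) from between 9 and 56 footprints per library, and its RNAseq change was -0.10 ± 0.25 (adjusted p = 0.829). The Suz12 TE change of 0.89 was the highest of the 31 members but was not called. On the CDS alone the Suz12 change in RF was 0.69 (adjusted p = 0.1003). The RF call of Suz12 was also lost by DESeq2 (adjusted p = 0.171), with library totals (0.0913), and without untreated culture 1 (0.155), untreated culture 3 (0.0506), KCl culture 4 (0.126) or KCl culture 5 (0.255). Ezh1, the subunit typical of cells that no longer divide, had lower RF levels in both KCl cultures, 6.20, 4.09 and 3.40 RPKM without and 2.71 and 2.81 RPKM with KCl, but did not pass the test (log2 fold change -0.75 ± 0.32 (SE), adjusted p = 0.0755). In untreated cultures Ezh2 had 15.9 ± 3.59 RPKM in RNAseq, 20.1 ± 1.07 RPKM in RF and a TE of 1.31 ± 0.353. Ezh1 had 3.06 ± 0.403 RPKM in RNAseq, 4.56 ± 1.46 RPKM in RF and a TE of 1.503 ± 0.454, and Suz12 4.92 ± 0.552 RPKM in RNAseq, 2.78 ± 0.578 RPKM in RF and a TE of 0.574 ± 0.167. Most RNAseq reads of Suz12 lay on the 3′UTR, with 56, 59 and 71 reads without and 51 and 64 with KCl, while those on the CDS were 8, 5 and 4 reads without and 1 and 5 with KCl. With RNAseq from the 5′UTR and CDS, the untreated TE was 4.24 ± 1.62 (from 1 to 8 such reads per library) for Suz12 and 3.32 ± 0.878 (from 6 to 25 such reads per library) for Ezh1.

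The lysine demethylases and PHF proteins held the largest rise of the group in each assay, that of Kdm3a, and those called in RNAseq all rose. By the wider table, 7 of 11 rose in RNAseq and none fell, with a median log2 fold change of 0.61, beside 12.6% of all transcripts that rose and 10.5% that fell. In RF 6 rose and 1 fell, beside 15.6% and 14.3%. Of 11 related genes listed with the demethylases, not all of which encode one, 2 rose in RNAseq in the wider table (Jmjd1c and Jmjd6). In RF 3 of these 11 rose, and none fell in either assay. The genes are described by the mark their proteins remove.

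KDM3A and KDM3B remove mono- and dimethyl groups from H3K9. Kdm3a, at chr6:71588972-71632905 on GRCm38, showed the largest rise of all members in both assays. Its RNAseq levels were 14.3, 15.6 and 14.1 RPKM without and 30.5 and 35.4 RPKM with KCl (log2 fold change 1.17 ± 0.15 (SE), adjusted p = 1.96e-08). RF levels rose from 26.5, 28.7 and 22.1 RPKM without to 74.3 and 69.6 RPKM with KCl (log2 fold change 1.45 ± 0.10 (SE), adjusted p = 5.96e-12). Groups were far apart in both assays, and no alternative on the same regions or single left-out culture ended either call. TE was 1.85, 1.84 and 1.56 without and 2.44 and 1.96 with KCl, a change of 0.31 ± 0.19 (adjusted p = 0.460). Its paralog Kdm3b was called higher in neither assay, and the difference between the paralogs was not tested. Kdm3b RNAseq levels were 17.2, 18.6 and 14.7 RPKM without and 17.9 and 15.5 RPKM with KCl, with overlapping groups (log2 fold change -0.011 ± 0.15, adjusted p = 0.963). Kdm3b RF levels were 17.5, 17.7 and 17.2 RPKM without and 15.3 and 12.6 RPKM with KCl (log2 fold change -0.35 ± 0.13 (SE), adjusted p = 0.0278), a fall that was not called by DESeq2 (adjusted p = 0.0972), in the wider table (0.106), in a single fit of all libraries (0.0620), with no filter beyond 1 read (0.110) or without KCl culture 5 (0.465) or untreated culture 1 (0.0662). Untreated Kdm3a had 14.7 ± 0.815 RPKM in RNAseq, 25.8 ± 3.39 RPKM in RF and a TE of 1.75 ± 0.162, and Kdm3b 16.8 ± 1.97 RPKM in RNAseq, 17.5 ± 0.266 RPKM in RF and a TE of 1.05 ± 0.111.

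KDM5A and KDM5B remove trimethyl groups from H3K4, and both genes rose in both assays. Kdm5b RNAseq levels were 10.7, 10.7 and 9.38 RPKM without and 23.1 and 21.1 RPKM with KCl (log2 fold change 1.11 ± 0.14 (SE), adjusted p = 2.83e-08). Kdm5b RF levels were 41.8, 42.9 and 47.2 RPKM without and 96.1 and 97.8 RPKM with KCl (log2 fold change 1.15 ± 0.087 (SE), adjusted p = 1.56e-11). Both KCl values lay above every untreated value in each assay, while TE of Kdm5b stayed between 3.92 and 5.03 in all 5 cultures (change 0.045 ± 0.18, adjusted p = 0.955). Kdm5a RNAseq levels were 6.97, 6.13 and 6.68 RPKM without and 11.2 and 11.6 RPKM with KCl (log2 fold change 0.79 ± 0.15 (SE), adjusted p = 4.54e-05), and its RF levels were 13.9, 13.8 and 16.2 RPKM without and 29.0 and 29.2 RPKM with KCl (log2 fold change 1.02 ± 0.11 (SE), adjusted p = 2.69e-08). Every KCl value of Kdm5a lay above every untreated value, and by the wider table the changes were 0.86 in RNAseq (adjusted p = 3.86e-06) and 1.09 in RF (adjusted p = 4.84e-11). No single left-out culture ended these calls. Kdm5b had 10.2 ± 0.749 RPKM in RNAseq, 44.0 ± 2.84 RPKM in RF and a TE of 4.32 ± 0.615 before KCl, the highest footprint level of the group, and Kdm5a 6.59 ± 0.428 RPKM in RNAseq, 14.6 ± 1.398 RPKM in RF and a TE of 2.22 ± 0.219.

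KDM2A and KDM2B bind unmethylated CpG islands and demethylate H3K36. Kdm2a RNAseq levels were 18.5, 17.8 and 16.1 RPKM without and 27.4 and 23.4 RPKM with KCl (log2 fold change 0.54 ± 0.14 (SE), adjusted p = 0.00219), a call lost without KCl culture 4 (adjusted p = 0.104). Kdm2a RF levels were 18.3, 19.9 and 21.6 RPKM without and 34.7 and 32.5 RPKM with KCl (log2 fold change 0.77 ± 0.11 (SE), adjusted p = 3.66e-06), and this call was kept without any single culture. Kdm2b was called in no readout. Untreated Kdm2a had 17.5 ± 1.25 RPKM in RNAseq, 19.9 ± 1.65 RPKM in RF and a TE of 1.15 ± 0.179, and Kdm2b 9.87 ± 1.01 RPKM in RNAseq, 5.29 ± 0.902 RPKM in RF and a TE of 0.543 ± 0.135. With RNAseq from the 5′UTR and CDS the untreated TE of Kdm2b was 2.21 ± 0.662 (from 18 to 39 such reads per library).

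KDM6B (JMJD3) removes H3K27 methylation and is known as a stimulus-induced gene in several cell types. Kdm6b RNAseq levels were 16.5, 22.8 and 22.4 RPKM without and 28.4 and 40.8 RPKM with KCl (log2 fold change 0.75 ± 0.15 (SE), adjusted p = 1.10e-04). By the wider table the change was 0.82 in RNAseq (adjusted p = 4.24e-06). The rise lay mostly in reads on the 3′UTR, which were 32.1, 45.8 and 52.4 CPM without and 100.1 and 140.0 CPM with KCl, while CDS reads were 74.7, 104 and 92.3 CPM without and 85.5 and 128 CPM with KCl and overlapped. With RNAseq counted on the 5′UTR and CDS the change was 0.29 (adjusted p = 0.179), and without KCl culture 5 the whole-transcript call was lost (adjusted p = 0.0597). Kdm6b RF levels were 9.88, 10.7 and 8.72 RPKM without and 13.5 and 11.5 RPKM with KCl, a change of 0.31 ± 0.14 that did not pass on both regions (adjusted p = 0.0804) but passed in the wider table (adjusted p = 0.0398) and on the CDS alone (log2 fold change 0.42, adjusted p = 0.0268). Before KCl its RF level was 9.75 ± 0.973 RPKM and its TE was 0.485 ± 0.106, at percentile 7.61 of all genes in the wider table, although its RNAseq level of 20.6 ± 3.53 RPKM stood at percentile 76.8.

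KDM4A and KDM4B act on trimethylated H3K9 and H3K36, and their mRNAs combined RNAseq levels at percentiles 38.0 and 25.7 of all genes with TE at percentiles 93.3 and 93.8. Kdm4a had 5.36 ± 1.06 RPKM in RNAseq, 30.2 ± 3.00 RPKM in RF and a TE of 5.81 ± 1.45, and Kdm4b 3.40 ± 1.01 RPKM in RNAseq, 19.0 ± 2.50 RPKM in RF and a TE of 6.03 ± 2.16. The Kdm4b RNAseq level rests on between 40 and 69 reads per library, with a TE of 7.31, 3.54 and 7.23 without and 8.10 and 6.43 with KCl. With RNAseq from the 5′UTR and CDS the untreated TE of Kdm4b was 17.5 ± 10.1 (from 8 to 26 such reads per library). Kdm4b RF levels were 20.8, 16.2 and 20.2 RPKM without and 23.6 and 27.5 RPKM with KCl (log2 fold change 0.53 ± 0.14 (SE), adjusted p = 0.00216), a rise lost without KCl culture 5 (adjusted p = 0.183). Kdm4a was called in no readout.

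Phf2 was the member whose mRNA and footprints moved in opposite directions. PHF2 and PHF8 are JmjC domain proteins with a PHD finger that binds methylated H3K4, and PHF8 removes H3K9 methylation. The Phf2 transcript lies at chr13:48801750-48871119 (GRCm38). Phf2 RNAseq levels were 13.1, 16.2 and 16.4 RPKM without and 19.7 and 21.6 RPKM with KCl (log2 fold change 0.44 ± 0.15 (SE), adjusted p = 0.0214). Its RF levels were 11.1, 11.9 and 9.99 RPKM without and 6.91 and 7.35 RPKM with KCl (log2 fold change -0.64 ± 0.17 (SE), adjusted p = 0.00360). TE of Phf2 was 0.845, 0.737 and 0.607 without and 0.35 and 0.341 with KCl (log2 fold change -1.10 ± 0.25 (SE), adjusted p = 0.00137), and on the CDS alone 0.992, 0.864 and 0.735 without and 0.420 and 0.406 with KCl (adjusted p = 0.00159). The groups overlapped in none of these readouts. By the wider table the Phf2 changes were 0.51 in RNAseq (adjusted p = 0.00963), -0.57 in RF (adjusted p = 0.0131) and -1.10 in TE (adjusted p = 0.00379). Footprints on Phf2 numbered between 39 and 317 per library. Phf2 reads on the 3′UTR were 20.3, 32.8 and 40.9 CPM without and 53.4 and 55.7 CPM with KCl, and reads on the CDS were 51.7, 56.1 and 49.5 CPM without and 54.99 and 62.8 CPM with KCl. With RNAseq counted on the 5′UTR and CDS, the Phf2 changes were 0.22 in RNAseq (adjusted p = 0.439) and -0.85 in TE (adjusted p = 0.0668). The TE call was also lost without KCl culture 4 (adjusted p = 0.0615) or 5 (0.192), the RF call without KCl culture 5 (0.0610), and the RNAseq call with library totals (0.0530) and without KCl culture 4 (0.0580), KCl culture 5 (0.186) or untreated culture 1 (0.0548), with the direction unchanged in each of these.

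Phf8, the X-linked paralog of Phf2, rose in RNAseq. Its levels were 7.45, 5.67 and 5.80 RPKM without and 11.5 and 13.6 RPKM with KCl (log2 fold change 1.07 ± 0.18 (SE), adjusted p = 1.11e-06), with no overlap. Phf8 reads on the 3′UTR were 22.4, 18.8 and 19.2 CPM without and 45.1 and 48.0 CPM with KCl, and reads on the CDS were 19.1, 12.1 and 12.1 CPM without and 17.2 and 28.1 CPM with KCl, with overlapping groups. Counted on the 5′UTR and CDS, the RNAseq change was 0.71 (adjusted p = 0.0490). RF levels were 9.04, 9.74 and 5.73 RPKM without and 9.20 and 10.6 RPKM with KCl and overlapped (log2 fold change 0.27 ± 0.19 (SE), adjusted p = 0.312). TE of Phf8 was 1.21, 1.72 and 0.988 without and 0.797 and 0.777 with KCl, lower in both KCl cultures, with a change of -0.75 ± 0.28 that did not pass the test (adjusted p = 0.183). Untreated Phf2 had 15.2 ± 1.85 RPKM in RNAseq, 11 ± 0.974 RPKM in RF and a TE of 0.730 ± 0.119, and Phf8 6.30 ± 0.994 RPKM in RNAseq, 8.17 ± 2.14 RPKM in RF and a TE of 1.31 ± 0.374.

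**Figure D3:**
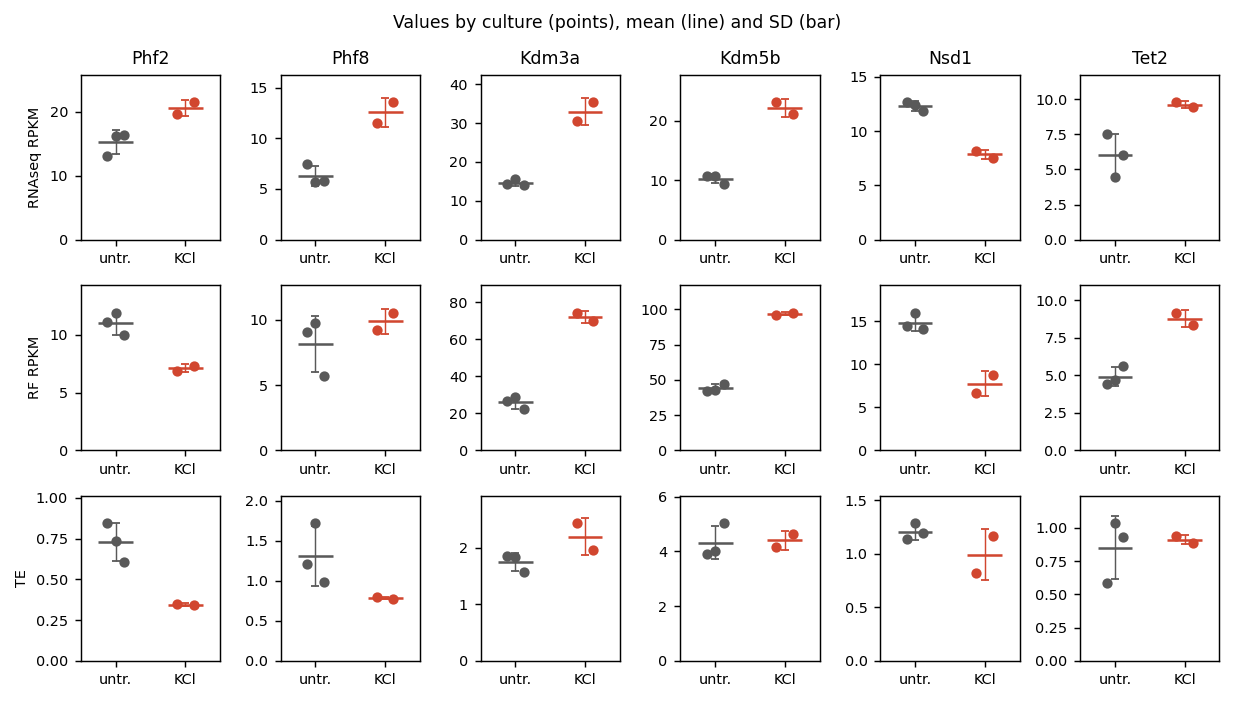
RNAseq level (RPKM), RF level (RPKM) and TE of 6 members in each culture, with the mean as a line and the SD as a bar (3 untreated cultures in grey, 2 KCl cultures in red, axes from 0). Phf2 is higher with KCl in RNAseq and lower in RF and TE, Kdm3a, Kdm5b and Tet2 are higher in RNAseq and RF, and Nsd1 is lower in both.

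**Figure D4:**
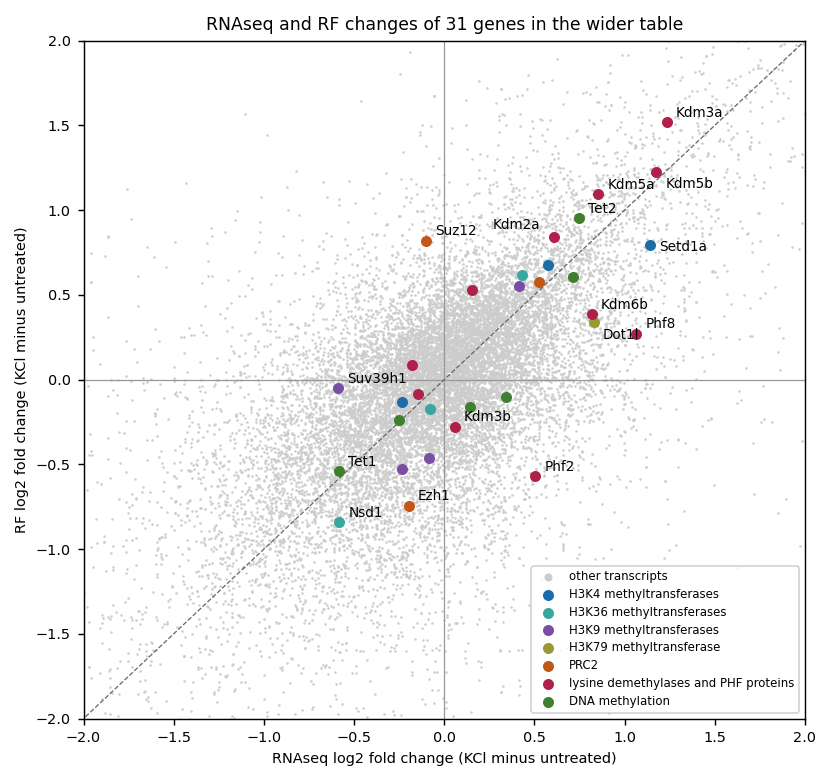
RF against RNAseq log2 fold change with KCl in the wider table (both axes KCl minus untreated), with the 31 members coloured by role, other transcripts in grey and a dashed line where both are equal. Most members that moved lie near the line, Phf2 lies in the lower right quadrant, Phf8 and Dot1l lie below the line, and Suz12 lies above it.

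Promoter windows were searched for the sites through which depolarization is known to act, the cAMP response element (CRE, TGACGTCA), its core (TGACG) and the AP-1 site (TGANTCA), on both strands. RefSeq windows of 300 bases, 250 before and 50 after the start, were matched for 24 of the 31 members. The RefSeq start lay within 50 nt of the start of the transcript analysed for 19 of the 24. It lay 515 nt upstream for Phf8, and downstream by 234 nt for Phf2, 719 nt for Setd1a, 11794 nt for Tet1 and 27296 nt for Setd5. The core is contained in every full CRE. A CRE was found in 1 of the 24 windows (4.17%), that of Phf8, beside 1.79% of 32817 windows of all genes. The core was found in 8 (33.3%, beside 20.8%), namely in Phf2, Phf8, Kdm2b, Kdm5b, Suv39h1, Suz12, Tet2 and Mbd5, and an AP-1 site in 1 (4.17%, beside 7.81%), Kdm4a. The windows of Kdm3a and Dot1l held none of these motifs. These matches are a description of the sequence and were not tested for binding. Matches are shown for the member with the full CRE, for 4 other members called with KCl and for the single AP-1 match, as 30 bases of the gene strand, 5′ to 3′ (GRCm38.p6), with the match in capitals. In the Tet2 window the core is on the opposite strand.
Phf8, CRE, chrX:151520607-151520636 on the plus strand: gccccgccccaTGACGTCAcgcaagagccg
Phf2, CRE core, chr13:48871106-48871135 on the minus strand: ccggggcgcTGACGtagcggccgctcggcg
Kdm5b, CRE core, chr1:134559934-134559963 on the plus strand: gtgccaaaatataTGACGtgattgatggat
Suz12, CRE core, chr11:79992973-79993002 on the plus strand: gcctccgcgtgacTGACGggggactctgcg
Tet2, CRE core, chr3:133544341-133544370 on the minus strand: cccgccgagcctagagaacagaCGTCAaac
Kdm4a, AP-1, chr4:118180216-118180245 on the minus strand: actatggagatcTGAGTCAgcctctgatag

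Among the DNA methylation genes, Tet2 and Tet3 rose in both assays and Tet1 fell in RNAseq. Their proteins oxidize 5-methylcytosine. Tet2 RNAseq levels were 7.55, 4.50 and 6.02 RPKM without and 9.80 and 9.44 RPKM with KCl (log2 fold change 0.75 ± 0.17 (SE), adjusted p = 3.11e-04), and its RF levels were 4.41, 4.66 and 5.62 RPKM without and 9.17 and 8.37 RPKM with KCl (log2 fold change 0.95 ± 0.17 (SE), adjusted p = 8.63e-06). Tet3 RNAseq levels were 11.9, 13.7 and 10.6 RPKM without and 18.9 and 18.9 RPKM with KCl (log2 fold change 0.71 ± 0.14 (SE), adjusted p = 3.12e-05), and its RF levels were 6.96, 5.96 and 6.57 RPKM without and 9.86 and 9.08 RPKM with KCl (log2 fold change 0.61 ± 0.16 (SE), adjusted p = 0.00315). The KCl cultures lay above all untreated cultures in each of these. Tet1 RNAseq levels were 5.14, 3.84 and 3.84 RPKM without and 3.14 and 2.31 RPKM with KCl (log2 fold change -0.58 ± 0.19 (SE), adjusted p = 0.0148). Its RF levels were 1.69, 2.17 and 1.37 RPKM without and 1.11 and 1.25 RPKM with KCl, from between 11 and 93 footprints per library, and the change of -0.54 ± 0.30 did not pass the test (adjusted p = 0.186). The Tet1 fall in RNAseq was not called by DESeq2 (adjusted p = 0.0506), on the 5′UTR and CDS (0.176), or without KCl culture 5 (0.328) or untreated culture 1 (0.0655), and the Tet3 rise in RF was lost without KCl culture 4 (0.0585). In untreated cultures Tet3 mRNA was the most abundant, with 12.1 ± 1.57 RPKM in RNAseq, 6.496 ± 0.504 RPKM in RF and a TE of 0.546 ± 0.0984. Tet2 had 6.02 ± 1.53 RPKM in RNAseq, 4.90 ± 0.638 RPKM in RF and a TE of 0.851 ± 0.237, and Tet1 4.28 ± 0.748 RPKM in RNAseq, 1.74 ± 0.407 RPKM in RF and a TE of 0.417 ± 0.130.

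DNMT1 copies methylation onto newly replicated DNA and DNMT3A methylates sites that carry none. Dnmt1 RF levels were 27.5, 28.0 and 21.1 RPKM without and 19.8 and 21.98 RPKM with KCl, with overlapping groups. The fall was called on both regions (log2 fold change -0.31 ± 0.12 (SE), adjusted p = 0.0430) but not on the CDS alone (adjusted p = 0.0624), by DESeq2 (0.135), in a single fit of all libraries (0.0911), in the wider table (0.143), with no filter beyond 1 read (0.128) or without any single culture other than untreated culture 3, where the adjusted p lay between 0.10 and 0.294. In RNAseq the Dnmt1 change was -0.32 ± 0.18 (adjusted p = 0.169). Dnmt3a, the main de novo enzyme of neurons after birth, had RNAseq levels of 17.2, 16.7 and 16.7 RPKM without and 18.9 and 16.7 RPKM with KCl and was called in no readout. Before KCl, Dnmt1 had 11.1 ± 1.24 RPKM in RNAseq, 25.5 ± 3.85 RPKM in RF and a TE of 2.297 ± 0.351, and Dnmt3a 16.9 ± 0.295 RPKM in RNAseq, 37.1 ± 3.40 RPKM in RF and a TE of 2.19 ± 0.208. Mbd5, of the methyl-CpG binding domain family, had 3.89 ± 1.31 RPKM in RNAseq, 1.73 ± 0.285 RPKM in RF and a TE of 0.489 ± 0.200 and was called in no readout.

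The 8 members called in no readout, a count given without the share of all transcripts, were Kdm2b, Kdm4a, Setd1b, Setd5, Suv39h1, Ezh1, Dnmt3a and Mbd5. Their log2 fold changes lay between -0.59 and 0.34 in RNAseq, between -0.75 and 0.089 in RF and between -0.47 and 0.54 in TE. Standard errors of the TE changes of the 31 members ran from 0.18 to 0.52, against 0.14 to 0.44 in RNAseq and 0.087 to 0.38 in RF.

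Ribosomes on the 5′UTR can precede the main start codon, often on short upstream reading frames. Over all transcripts the 5′UTR held between 6.08% and 8.64% of 5′UTR and CDS footprints per library. Mbd5 stood apart, with 48.8%, 60.8% and 90.0% without and 40.0% and 77.3% with KCl. Its 5′UTR is 1258 nt long with 26 ATG triplets before the CDS, where the medians over the 31 members are 195 nt and 1. The Mbd5 shares come from 80 5′UTR footprints over the 5 libraries, 61.1% of its footprints in all, with 95% Wilson intervals of 11.8% to 76.9% for the lowest share and 59.6% to 98.2% for the highest, which cover counting error only. The RF level and TE of Mbd5 thus rest mostly on its 5′UTR, and its untreated TE on the CDS alone was 0.219 ± 0.110. Setd1a followed, with 27.0%, 18.4% and 50% without and 44.4% and 49.0% with KCl, from 5′UTR counts of 20, 9 and 8 without and 8 and 24 with KCl and with intervals of 9.98% to 31.4% for the lowest share and 28.0% to 72.0% for the highest. Next was Kdm6b with 16.7%, 24.3% and 17.4% without and 17.0% and 14.2% with KCl (intervals of 9.88% to 20% for the lowest share and 20.2% to 28.8% for the highest). Setd5 also lay above the share over all transcripts in every culture, with 13.4%, 14.2% and 12.5% without and 13.0% and 17.7% with KCl, from 172 5′UTR footprints (intervals of 7.13% to 21.0% for the lowest share and 12.6% to 24.4% for the highest). The 5′UTR of Setd1a has 693 nt and that of Kdm6b 410 nt, each with 3 upstream ATG triplets. For Kmt2a, Ehmt1, Ehmt2 and Tet1 no footprint was counted on the 5′UTR over the 5 libraries. By counting error alone this allows shares of up to 0.204%, 0.222%, 0.168% and 1.33% (3 counts of the total). The first 3 of these have annotated 5′UTRs of 22, 17 and 3 nt, shorter than a ribosome footprint. Few footprints could be counted on them in any case, so the limits for these 3 genes say little. Reads on the 5′UTR alone sufficed to test 13 members among 5868 transcripts, and Kdm5b, Dot1l and Tet2 rose, where 5.44% of all tested transcripts rose and 3.17% fell. Kdm5b had 5′UTR footprint counts of 33, 5 and 11 without and 22 and 32 with KCl (log2 fold change 1.72 ± 0.47 (SE), adjusted p = 0.0247). Tet2, with 7 upstream ATG triplets, had 15, 5 and 7 without and 12 and 19 with KCl (log2 fold change 1.73 ± 0.51 (SE), adjusted p = 0.0358). Dot1l had 12, 6 and 1 without and 6 and 21 with KCl (log2 fold change 2.05 ± 0.59 (SE), adjusted p = 0.0310). These counts are raw and the RF libraries differ in depth. By DESeq2 none of the 13 was called, and none without KCl culture 4 or without KCl culture 5, and of the 3 members with at least 10 reads in every RF library none was called.

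**Figure D5:**
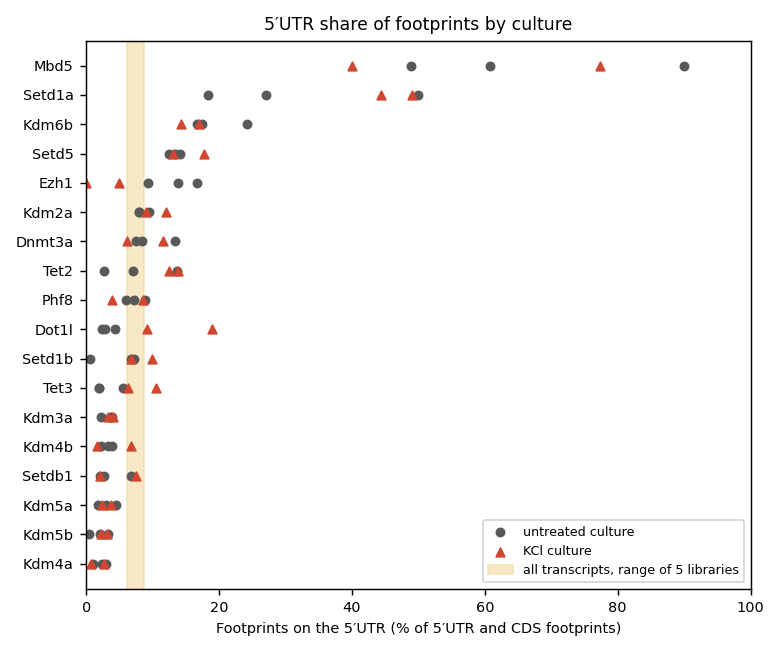
Share of 5′UTR footprints among 5′UTR and CDS footprints (x axis, %) in each culture for members with at least 20 such footprints, with untreated cultures as grey circles and KCl cultures as red triangles. The shaded band spans the share over all transcripts in the 5 RF libraries, and Mbd5, Setd1a, Kdm6b and Setd5 lie above it in every culture.

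Related genes outside the group were read from a list of 87 writers, erasers, partners and cofactor enzymes, of which 77 matched a transcript. Of the 28 present in the stricter table, 10 rose and 3 fell in RNAseq, where 17.5% of all transcripts rose and 15.7% fell. There, 10 rose and 7 fell in RF (beside 20.3% and 20.1%) and 1 rose in TE (beside 1.24%). A gene could pass the stricter filter through 1 group only, so these counts are a description. Mean RNAseq levels were 7.39 RPKM without and 20.9 RPKM with KCl for Gadd45a. For Prmt3 they were 10.1 RPKM without and 6.33 RPKM with KCl. By the wider table, 14 of 70 rose and 6 fell in RNAseq (beside 12.6% and 10.5%), and 16 rose and 10 fell in RF (beside 15.6% and 14.3%). Among those called, the largest rises in RNAseq were those of Gadd45a (log2 fold change 1.49 ± 0.27), Gadd45b (1.42 ± 0.20) and Jmjd6 (1.35 ± 0.18). GADD45 proteins are linked to active DNA demethylation and DNA repair, and Gadd45b is a classic activity-induced gene of neurons. In RF the largest rises were those of Gadd45g (1.96 ± 0.16), Gadd45b (1.85 ± 0.15) and Jmjd6 (1.73 ± 0.14), and Gadd45g rose in TE (0.68 ± 0.21, adjusted p = 0.0324). That TE call was lost without the culture block, by DESeq2, in the wider table, with RNAseq counted on the 5′UTR and CDS, and without KCl culture 4, KCl culture 5 or untreated culture 2. Within the stricter table the largest falls in RNAseq were those of the arginine methyltransferase genes Prmt3 (-0.67 ± 0.25), Carm1 (-0.65 ± 0.20) and Prmt5 (-0.51 ± 0.18), and in RF those of Prmt3 (-1.04 ± 0.22), Ash2l (-0.88 ± 0.18), a core subunit of the H3K4 methyltransferase complexes, and Carm1 (-0.69 ± 0.18). The number of falls in RNAseq went from 3 to 1 without KCl culture 4 or untreated culture 2 and to 0 without KCl culture 5. Genes found in the wider table alone fell by more in RNAseq, led by Phf19 (-2.33 ± 0.48), Prmt6 (-1.48 ± 0.33) and Smyd5 (-1.13 ± 0.31). In RF, Phf19 had 32, 17 and 10 footprints without and 0 in both cultures with KCl, and Mtr (-0.96 ± 0.13) and Smyd5 (-0.92 ± 0.29) also fell. Of the 8 arginine methyltransferase genes in the wider table, Prmt6 and Carm1 fell in RNAseq and Prmt3, Prmt6 and Carm1 fell in RF, and none rose.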

How the data were processed

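RNAseq and RF libraries of 5 cultures were analysed. Reads were trimmed with Trimmomatic 0.32, rRNA reads were removed with STAR 2.3.1z8, and the rest were aligned to the mm10 transcriptome with Bowtie2 2.2.2 and counted per transcript region with bedtools 2.20.1, with the versions from the submitters' processing notes. The raw counts deposited by the authors hold 1 row per Ensembl transcript and region (5′UTR, CDS, an unnamed region and 3′UTR). Reads that align to several transcripts were kept, so isoforms and close paralogs can share reads, and transcripts of one gene are not independent. At most 2.2% of the 25-mers of any member transcript occurred in another gene. By the study's methods, 1 more KCl replicate had been dropped because its library was small.

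Of 22534 transcripts, 22172 (98.4%) were matched to GENCODE M21 (GRCm38). Counts were tested with edgeR 4.0.16 (quasi-likelihood, robust, TMM, R 4.3.3) in each assay, RNAseq over all regions and RF over 5′UTR and CDS, with Benjamini-Hochberg adjustment over the whole table. For TE the term tested was the assay by KCl interaction, with the culture as a block, since both libraries of a culture came from 1 lysate. The deviations of the 2 assays within a culture had Pearson correlations of -0.0523, -0.0375 and 0.074 in the untreated and 0.0158 in both KCl cultures. With 2 KCl cultures the deviations mirror each other, so these 2 values are equal by construction. Between different untreated cultures the correlations ran from -0.0909 to 0.106, a range that holds every value within a culture. Standard errors are approximate, computed as the absolute log2 fold change divided by the square root of the F statistic. The scripts were checked on simulated counts.

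The members and lists were chosen with earlier results of these data known. Every member is named with its baseline level. Fold changes with their tests are given for members with an adjusted p under 0.05, and those of other members where a paragraph sets them beside a called readout, a choice made after their values were seen. Related genes are named where they were called in TE or had the 3 largest called changes per direction in RNAseq and RF. Alternatives covered DESeq2 1.42.0, library totals, other filters, other regions, 1 transcript per gene, a single fit, no culture block and leaving out each culture. For the 5′UTR, DESeq2 and library totals were added after the data were seen. Counts on the 5′UTR are few, and their precision covers counting error only.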

Additional observations from a re-analysis of the deposited data

How the results depend on the processing

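Of 37 called changes of members, 13 kept direction and call under each of the 16 alternatives that could be computed for them. Calls lost or reversed numbered 16 without KCl culture 5, 11 without KCl culture 4, 15 with RF on the 5′UTR alone, 7 by DESeq2, 4 with RNAseq on the 5′UTR and CDS, 3 each with RF on the CDS alone and with library totals, and 2 each with a single fit, the wider table and no filter beyond 1 read. Leaving out untreated culture 1, 2 or 3 ended 6, 3 and 1. The cause of these losses was not tested. With 2 KCl cultures, leaving 1 out leaves a single KCl culture, assumed to vary like the untreated ones.

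In the wider table and with no filter beyond 1 read, more transcripts are tested, and all 31 members in place of 14. There 17 and 17 members were called in RNAseq (7 in the stricter table) and 18 and 18 in RF (11 in the stricter table). Of related genes, 70 and 77 were tested, beside 28 in the stricter table. Of these, 20 and 20 were called in RNAseq (13 in the stricter table), 26 and 27 in RF (17) and 0 and 0 in TE (1). Of all transcripts, 4210 and 4138 were called in RNAseq (2410 reported) and 5441 and 5479 in RF (2938 reported). With 1 transcript per gene, 1450 were called in RNAseq, 1731 in RF and 181 in TE (306 reported). DESeq2 called 136 in TE, with 0 related genes. With RNAseq on the 5′UTR and CDS, 1557 were called in RNAseq and 184 in TE, with 0 members and 0 related genes in TE. With RF on the 5′UTR alone, 407 were called in RF and 13 in TE, with 1 member, 2 members below the filter (8 reported) and 5 related genes in RF, and 0 members and 0 related genes in TE. The 3 calls on the 5′UTR fell to 0 by DESeq2 and to 0 with at least 10 reads in every library.

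Without the culture block in TE, the pairing of RNAseq and RF being by lysate, 1 member, 283 of all transcripts and 0 related genes were called, and no call of a member changed. The median TE of untreated members, 1.15, was 1.55 with RNAseq on the 5′UTR and CDS.

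Leaving out 1 culture at a time, calls of all transcripts ranged over 1692 to 3046 in RF and 46 to 344 in TE, of members over 7 to 11 in RF, 0 to 1 in TE, 3 to 8 below the filter in RF and 0 to 4 on the 5′UTR, and of related genes over 0 to 1 in TE. The median TE ranged over 1.05 to 1.23. Log2 fold changes that changed sign, each of a readout that was not called, ranged over -0.12 to 0.092 (Kdm3b RNAseq), -0.16 to 0.43 (Kdm4b RNAseq), -0.032 to 0.59 (Kdm4b TE), -0.039 to 0.14 (Kdm5b TE), -0.43 to 0.18 (Setdb1 RNAseq), -0.68 to 0.040 (Setdb1 TE), -0.0089 to 0.31 (Ehmt2 TE), -0.11 to 0.23 (Ezh2 TE), -0.24 to 0.017 (Suz12 RNAseq), -0.13 to 0.19 (Dnmt1 TE), -0.22 to 0.44 (Tet1 TE), -0.11 to 0.38 (Tet2 TE), -0.26 to 0.030 (Tet3 TE).

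Signs also turned, as log2 fold changes, with RF on the 5′UTR alone (Phf2 RF 1.18, Phf2 TE 0.93, Phf8 RF -0.54, Kdm3b RF 0.20, Kdm3b TE 0.33, Kdm6b RF -0.35, Setd1a TE 0.088, Setdb1 RF 0.043, Setdb1 TE 0.028, Dot1l TE 1.18, Dnmt1 TE -3.52, Tet3 TE 0.80), with RNAseq on the 5′UTR and CDS (Kdm3b RNAseq 0.11, Kdm5b TE -0.055, Kdm6b TE 0.023, Ezh2 TE -0.013, Dnmt1 TE -0.087), in the wider table (Kdm3b RNAseq 0.057) and with no filter beyond 1 read (Kdm3b RNAseq 0.054). The Phf2, Kdm3b and Setdb1 values in RF and that of Phf2 in TE are of called changes. With few 5′UTR footprints, the depth limits those values.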
